A study of Homo sapiens with 10 samples.

Results

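The comparison set 2 RNA-seq libraries of OCI-LY10 against each other, 1 with STAT3 shRNA 16 and 1 with STAT3 shRNA 10. OCI-LY10 is a cell line established from a diffuse large B-cell lymphoma of the ABC (activated B-cell-like) type. Each hairpin was delivered by transduction and expressed for 2 days under doxycycline at 20 ng/ml, per the labels, so both libraries carry a STAT3 shRNA and the inducer. Genes were chosen by a mean of at least 5 FPKM (fragments scaled by gene length and by library size) over both libraries, which kept 7584 of 25275 symbols. Symbols of microRNA, SNORD, SNORA, SCARNA and RNU genes, 2033 in all, were left out by name. The series holds 10 samples, of which 6 are RNA-seq and 4 are STAT3 ChIP-seq. The OCI-LY10 library labelled control shRNA differs from both of these across the transcriptome and was not used, so no level without a STAT3 hairpin is given and the identity of the line rests on the labels. With 1 library per shRNA there is no replicate and no test, and every difference below is between these libraries.

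STAT3 is a transcription factor that JAK kinases activate downstream of cytokine receptors such as those of IL-6 and IL-10. Activated B-cell-like lymphoma cells often keep it active through such cytokines. A short hairpin RNA (shRNA) is cut in the cell into a small RNA that guides the degradation of a matching mRNA. The comparison asks how far cells with 2 different hairpins against the same mRNA differ.

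Both libraries held B-cell transcripts. All 12 B-cell markers passed the filter, among them CD79B, a signalling chain of the B cell receptor, at 1139 FPKM under shRNA 10 and 1226 under shRNA 16. MS4A1, which encodes CD20, stood at 305 and 295 FPKM. The summed FPKM of 14 T and NK cell markers was 2.61 with shRNA 10 and 3.92 with shRNA 16, and that of 13 myeloid markers was 3.10 and 2.12. Of the T and NK markers 4 were listed at 0 in both, CD3D and CD2 among them, and the highest value was 2.02 and 3.02 FPKM. Of the myeloid markers 6 were at 0 in both, MPO and TYROBP among them, and the highest value was 1.41 and 0.93. Among plasma-cell markers 8 passed the filter, and the list summed to 323 and 322 FPKM. None of 7 epithelial markers passed it, with a highest value of 4.39 in each library. Among 10 fibroblast and endothelial markers only PECAM1 passed the filter, at 5.43 and 6.05 FPKM.

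Sequencing depth differed. The commonest ratio among 1361 genes with values under 0.1 FPKM in both libraries, where 1 read sets the step, gave shRNA 16 a depth of 0.73 times that of shRNA 10. In bulk libraries, fewer cells of a kind (such as cells in S phase) and less RNA per cell cannot be told apart. Genes listed at 0 numbered 9185 with shRNA 10 and 9463 with shRNA 16. FPKM gives no read totals, so no counting interval can be set on a value.

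STAT3 itself stood at 11.1 FPKM under shRNA 10 and 10.6 under shRNA 16. The difference, shRNA 16 minus shRNA 10 on the log2(FPKM + 1) scale used throughout, was −0.07. The middle 50% of all genes compared lay between −0.12 and 0.11, so the difference in STAT3 was within the ordinary gap between these libraries.

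The libraries were alike across genes. Pearson's r of log2(FPKM + 1) over the 7584 genes was 0.991, given as a description since genes are not independent. The median difference was −0.01, and the 5th and 95th percentiles were −0.30 and 0.34. At least 1.5-fold on this scale, 98 genes were higher with shRNA 16 (1.29% of genes compared) and 16 were lower (0.211%). The scale understates the change of low genes. Scaling both libraries to the same FPKM sum, small RNA genes left out, gave 80 higher and 30 lower, so the share of higher genes among these went from 86.0% to 72.7%. Of the 98, 21 were under 5 FPKM with shRNA 10 and passed the filter through shRNA 16, and 4 of the 16 lower genes were under 5 FPKM with shRNA 16. Just outside the filter, LOC100652768 was at 4.66 and 5.33 FPKM, and just inside it NAA16 was at 5.13 and 4.87.

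**Figure D1:**
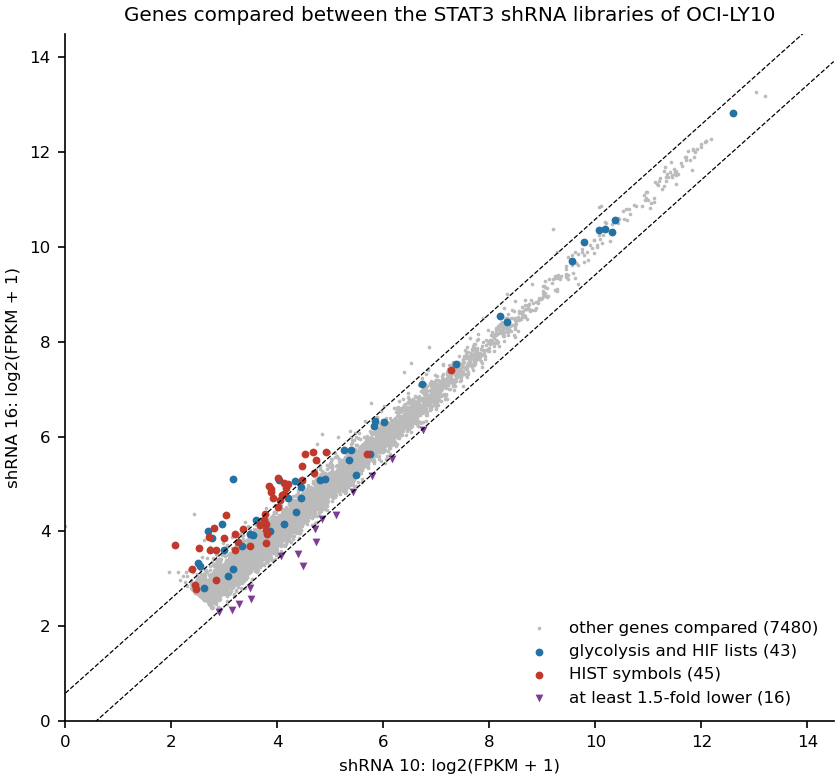
Each point is 1 of 7584 genes, with log2(FPKM + 1) in the shRNA 10 library on the x axis and in the shRNA 16 library on the y axis. Dashed lines mark 1.5-fold on this scale. HIST symbols (red) and members of the glycolysis and HIF lists (blue) make up many of the 98 genes above the upper line, and 16 genes (purple) lie under the lower line.

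Of the 98 higher genes, 48 were in none of the classes used here. Histone genes whose symbols begin with HIST gave 29, and the fixed lists of glycolysis and of the hypoxia response gave 10. Short noncoding RNAs outside the excluded names gave 6, nuclear copies of mitochondrial rRNA (MTRNR2L genes) gave 3, and genes of read-through pairs gave 2. The classes by HIST symbol, noncoding RNA, MTRNR2L symbol and read-through were drawn up after the values were seen. The fixed lists here and below were themselves chosen with earlier results of these data known, so their counts are descriptions only.

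**Figure D2:**
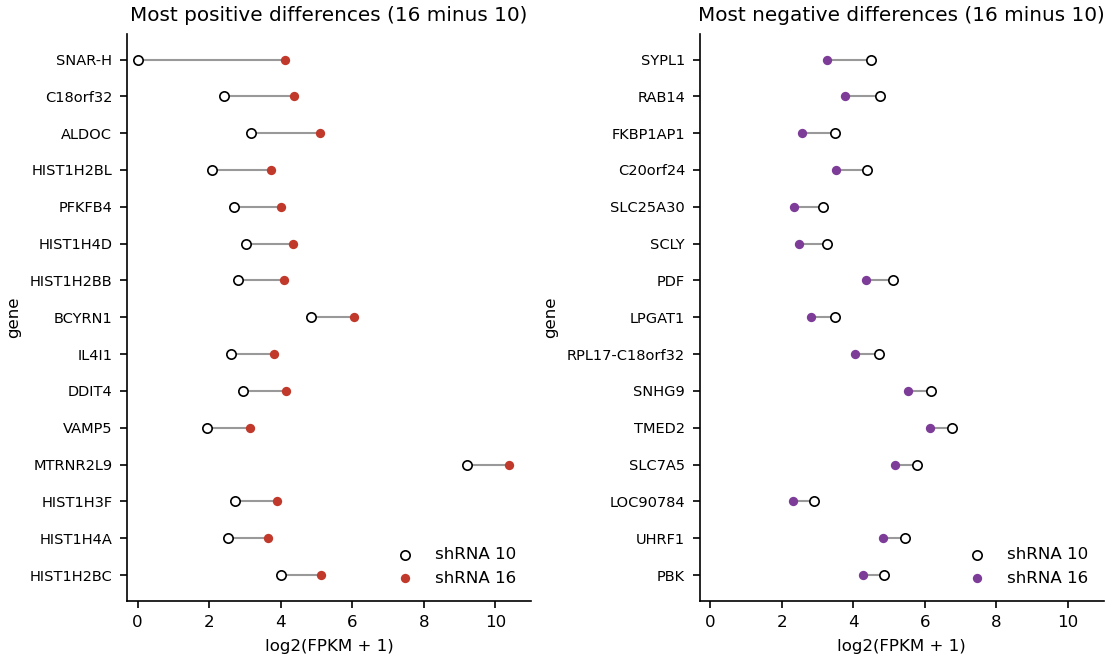
The 15 most positive (left) and 15 most negative (right) differences among the genes compared, with log2(FPKM + 1) on the x axis, shRNA 10 as open circles and shRNA 16 as filled ones. ALDOC, PFKFB4 and 6 HIST genes appear on the left with SNAR-H, listed at 0 with shRNA 10, and the right side begins with SYPL1 and RAB14.

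Histone genes of the replication-dependent set were the largest class that stood higher with shRNA 16. These genes supply H1, H2A, H2B, H3 and H4 during DNA synthesis, lie mostly in clusters, and are known for mRNAs that end in a stem-loop rather than a poly(A) tail. Of 35 compared in the fixed list, 23 were at least 1.5-fold higher, 0 were lower, and the median difference was 0.75, against −0.01 over all genes compared. The shares over all genes at this fold were 1.29% higher and 0.211% lower. Over all HIST symbols, 72 are in the table and 45 were compared. Of these, 29 were at least 1.5-fold higher and 43 lay above the median of all genes compared, which by construction holds for 50% of genes. Some of the 45, HIST1H2BL among them, were under 5 FPKM with shRNA 10 and passed the filter through shRNA 16. Of the 40 at 5 FPKM or more with shRNA 10, 26 were at least 1.5-fold higher. Near-identical copies make single histone values uncertain, since the counting of shared reads is not given in the sources used here. Summed over all 72 symbols, which depends less on how reads are split among them, histone FPKM was 779 with shRNA 10 and 1206 with shRNA 16, a ratio of 1.55.

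Every class took part. Among linker histone H1 genes 3 of 4 were at least 1.5-fold higher, with the exception of HIST1H1C at 154 FPKM under shRNA 10 and 168 under shRNA 16. For H2A the count was 4 of 10 and the median 0.49, the lowest of the classes. HIST1H2AE, the H2A gene with the highest level in the shRNA 10 library, was at 21.2 and 40.5 FPKM. For H2B it was 10 of 14, with a median of 0.84. HIST1H2BL showed the largest histone difference, 1.64, from 3.22 FPKM with shRNA 10 to 12.2 with shRNA 16. HIST1H2BB was at 6.02 and 15.9 FPKM and HIST1H2BC at 15.1 and 33.9. Only HIST1H2BK, at 50.4 and 48.8 FPKM, and HIST1H2BO, at 12.7 and 12.5, lay under the median of all genes among the 45. For H3 the count was 5 of 8, led by HIST1H3F at 5.57 and 13.8 FPKM. For H4 it was 7 of 9, with HIST1H4D at 7.21 and 19.3 FPKM, HIST1H4E at 22.0 and 48.8, and HIST1H4C at 24.6 and 50.2.

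Promoter letters of 3 of these genes are shown because each holds TATAAA, which most genes compared lack. The windows run from 250 bases before to 50 after the start, on GRCh38.p14 per RefSeq, whose build differs from that of the deposited table. Capitals mark the CCAAT box, the TATA box spelled TATAAA, or the octamer ATTTGCAT, each on either strand.
HIST1H4D, chr6:26189063-26189362, minus strand: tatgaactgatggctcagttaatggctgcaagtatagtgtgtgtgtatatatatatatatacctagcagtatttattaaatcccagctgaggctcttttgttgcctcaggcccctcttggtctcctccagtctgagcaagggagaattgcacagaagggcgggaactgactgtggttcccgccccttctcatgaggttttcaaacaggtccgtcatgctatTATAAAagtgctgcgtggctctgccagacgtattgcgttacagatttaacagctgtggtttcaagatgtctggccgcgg
HIST1H2BB, chr6:26043664-26043963, minus strand: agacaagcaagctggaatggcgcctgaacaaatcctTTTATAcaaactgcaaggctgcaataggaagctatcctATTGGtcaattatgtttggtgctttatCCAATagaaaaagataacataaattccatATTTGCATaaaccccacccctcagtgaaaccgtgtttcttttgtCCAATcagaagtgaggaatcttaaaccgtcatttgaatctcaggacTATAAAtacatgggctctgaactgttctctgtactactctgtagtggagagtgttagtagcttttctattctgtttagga
HIST1H2BL, chr6:27807880-27808179, minus strand: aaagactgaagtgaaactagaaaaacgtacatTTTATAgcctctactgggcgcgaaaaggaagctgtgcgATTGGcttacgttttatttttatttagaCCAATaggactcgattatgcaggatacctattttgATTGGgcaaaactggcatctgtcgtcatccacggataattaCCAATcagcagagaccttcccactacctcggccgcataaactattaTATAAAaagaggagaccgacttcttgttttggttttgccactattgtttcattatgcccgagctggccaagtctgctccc

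Of 36 compared HIST genes with a promoter in the reference, 31 (86.1%) held CCAAT and 25 (69.4%) held TATAAA. Over the 6290 genes compared that had a promoter, these shares were 39.3% and 5.21%, and over all 27305 promoters 35.7% and 12.0%. The octamer, the element read by POU2F1 and its B-cell relatives, stood in 15 of 36 HIST promoters, 6 of 9 for H2B and 9 of 27 for the others, and in 1.35% of genes compared (1.80% of all promoters). Of the promoters shown, HIST1H2BB held all 3 elements, HIST1H2BL held CCAAT and TATAAA, and HIST1H4D held TATAAA alone. The E2F motif TTTNGCGC, not marked above, stood in 12 of 36 HIST promoters, 6 of 9 for H2B and 6 of 27 for the others. It was in 3.75% of genes compared and 1.83% of all promoters. A match describes the letters and is not evidence of binding, and the octamer was added after the values were seen.

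Of 43 E2F and S-phase genes, 11 lay above the median of all genes, and the list's median difference was −0.11. At least 1.5-fold, 0 were higher and 1 was lower, beside shares over all genes of 1.29% and 0.211%. A count of 1 is too few to set against the lower share. UHRF1, which couples DNA methylation to replication, was at 42.1 FPKM under shRNA 10 and 27.5 under shRNA 16, a difference of −0.60 that was under 1.5-fold with median-of-ratios scaling and with a pseudocount of 5 FPKM. PCNA, the replication clamp, was at 372.5 and 299 FPKM, and the ribonucleotide reductase subunit RRM2 at 126 and 96.4. SLBP, which binds the histone stem-loop, was at 76.1 and 65.7 FPKM, and NPAT, the co-activator of histone transcription, at 12.3 and 10.8. H2AFZ, a histone variant made outside replication with a polyadenylated mRNA, was at 817 FPKM under shRNA 10 and 595 under shRNA 16, while H2AFX was at 81.4 and 83.0. The lists of variants and of histone RNA factors were drawn up after the values were seen.

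Short noncoding RNAs outside the excluded names also stood higher with shRNA 16. They are mostly made without a usual poly(A) tail, and their part in the histone difference was not tested. RMRP, the RNA of the RNase MRP complex, was at 623 FPKM under shRNA 10 and 956 under shRNA 16. RPPH1, the RNA of RNase P, was at 116 and 238, and the U1 variant RNVU1-19 at 1075 and 1832. The neuronal BC200 gene BCYRN1 was at 27.8 and 65.2 FPKM. TERC, the telomerase RNA, was at 6.10 and 6.53. In all, 6 of 7 compared short noncoding RNAs were at least 1.5-fold higher and 0 were lower, beside shares over all genes of 1.29% and 0.211%. SNAR-H, 1 of these, was listed at 0 with shRNA 10 and at 16.4 FPKM with shRNA 16, and its near-identical copies make it uncertain. Of 6 compared MTRNR2L genes, 3 were at least 1.5-fold higher, with MTRNR2L9 at 591 and 1334 FPKM. These are near-identical copies of the mitochondrial rRNA gene and are uncertain as single genes. The small RNAs left out by name did not all stand higher. At a mean of at least 5 FPKM, 34 of 95 SNORD genes were at least 1.5-fold higher and 29 lower. For SNORA genes the counts were 23 and 19 of 63, and for microRNA genes 25 and 22 of 67. For SCARNA genes they were 8 and 2 of 12, and for RNU genes 2 and 0 of 3.

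**Figure D3:**
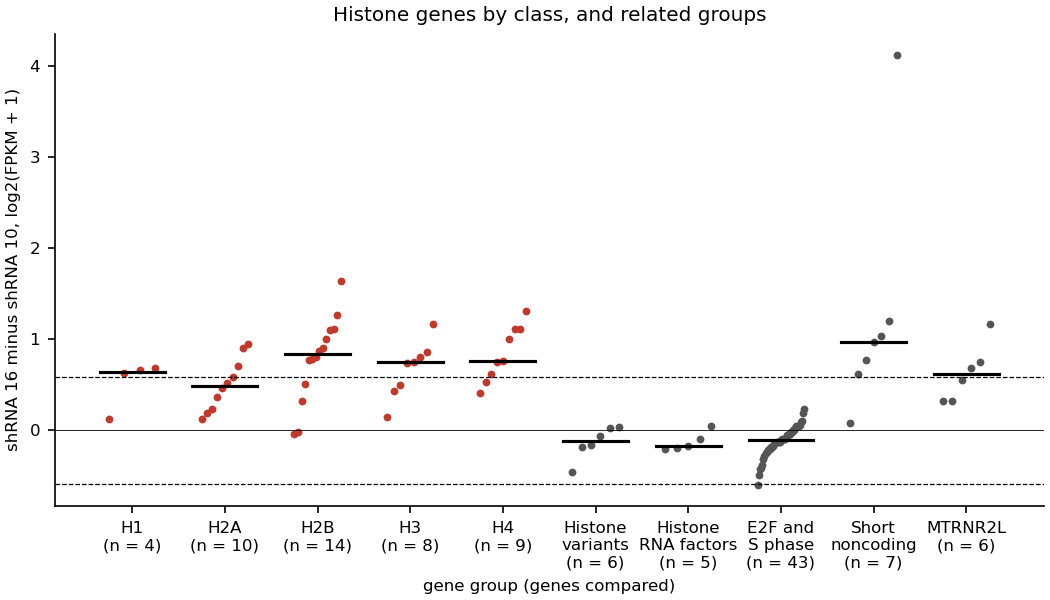
Differences in log2(FPKM + 1), shRNA 16 minus shRNA 10, for compared histone genes by class (red) and for 5 related groups (grey), with 1 point per gene and a black bar at the median. Dashed lines mark 1.5-fold. The histone medians lie between 0.49 and 0.84, and those of histone variants and of S-phase genes lie under 0. Among short noncoding RNAs only SNAR-H, listed at 0 with shRNA 10, lies above the highest histone gene.

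Genes of the hypoxia response and of glycolysis formed the second class higher with shRNA 16. Hypoxia-inducible factor (HIF) switches these genes on when oxygen is low, and many also respond to nutrient state. Of 23 compared genes of the HIF list, 8 were at least 1.5-fold higher, 0 were lower and 21 lay above the median of all genes, with a median difference of 0.47. ADM and KDM4B, 2 of the 8, were under 5 FPKM with shRNA 10 and passed the filter through shRNA 16. The count of 8 was 4 with a pseudocount of 5 FPKM and 1 of 8 compared genes at a mean of at least 20 FPKM. Of 20 compared glycolysis genes 2 were at least 1.5-fold higher, 0 were lower and 19 lay above the median of all genes, with a median of 0.25. At this fold 1.29% of all genes compared were higher and 0.211% lower. Several glycolysis genes, GAPDH, PKM and ENO1 among them, are of at least 500 FPKM. The 149 genes at that level had a median of 0.10, and the part of level in the glycolysis median was not tested.

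ALDOC, the aldolase isoform best known from brain, stood at 7.97 FPKM under shRNA 10 and 33.3 under shRNA 16, a difference of 1.93, the third highest after SNAR-H and C18orf32. Its abundant relative ALDOA was at 878 and 1107 FPKM, a difference of 0.33. PFKFB4, which sets the level of the glycolytic activator fructose 2,6-bisphosphate, was at 5.42 and 15.2 FPKM. SLC16A3, the lactate exporter MCT4, was at 15.3 and 32.9 FPKM, whereas SLC16A1, the transporter MCT1, was at 52.8 and 48.5. The enzymes of the main glycolytic path differed less, with PGK1 at 294 and 371 FPKM, GAPDH at 6185 and 7274 and LDHA at 757 and 839. LDHB, the other main lactate dehydrogenase subunit, was at 1274 and 1269.

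Regulators within the response also stood higher. DDIT4, an inhibitor of mTORC1 signalling, was at 6.75 FPKM under shRNA 10 and 16.7 under shRNA 16. BHLHE40, a transcriptional repressor, was at 5.81 and 13.6 FPKM, and MXI1, an antagonist of MYC, at 6.97 and 11.2. ADM, which encodes the peptide adrenomedullin, was at 4.69 and 9.11 FPKM. The mitophagy receptor gene BNIP3L was at 19.0 and 32.2 FPKM and its relative BNIP3 at 56.2 and 79.1. KDM4B, a histone demethylase, was at 4.78 and 8.64 FPKM, and P4HA1, a collagen prolyl hydroxylase subunit, at 11.1 and 17.8. HILPDA, a lipid droplet protein of the same response that is not in the list and was named after its values were seen, was at 25.8 and 56.8 FPKM.

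Other members did not reach 1.5-fold. HIF1A itself was at 16.5 and 16.9 FPKM and its partner ARNT at 10.6 and 14.2. VEGFA, the angiogenic growth factor, was at 20.7 and 29.4 FPKM, a difference of 0.49. EGLN1, an oxygen-sensing hydroxylase, was at 5.12 and 5.98. WSB1, at 44.0 and 35.6 FPKM, lay furthest to the other side, at −0.30. CA9, a carbonic anhydrase often read as a hypoxia marker, missed the filter at 1.05 and 4.20 FPKM.

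**Figure D4:**
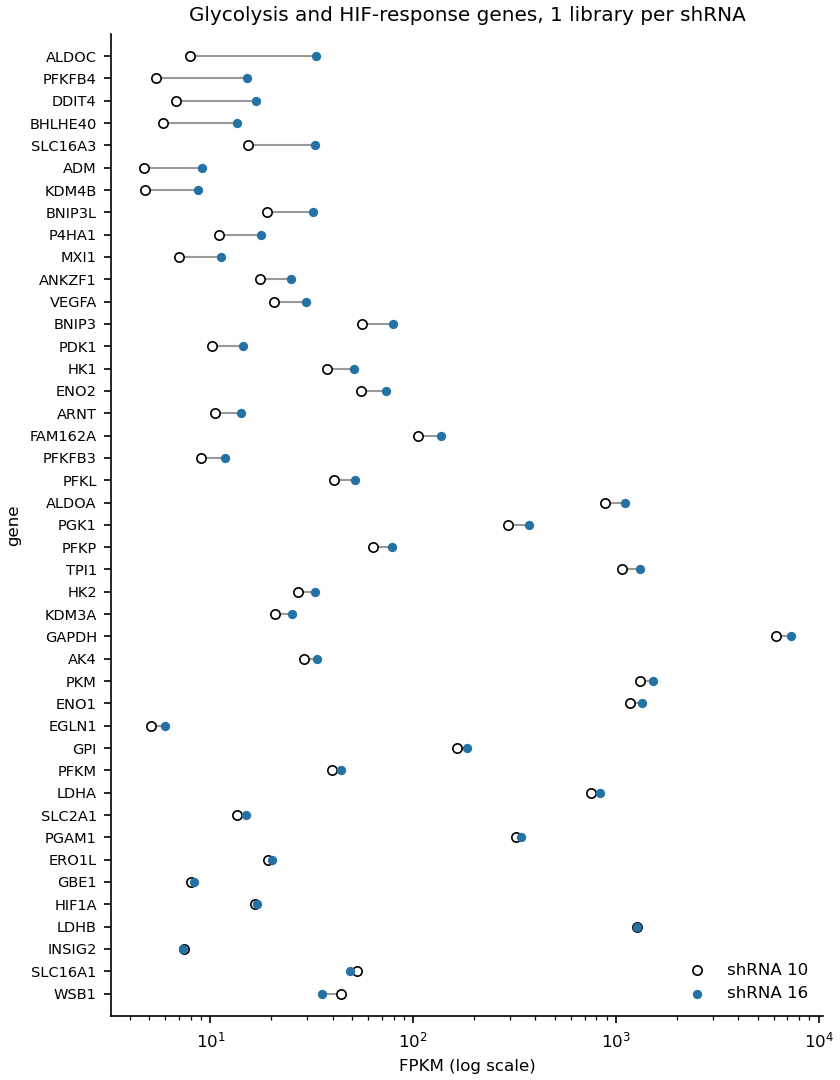
FPKM on a log scale (x axis) of the 43 compared genes of the glycolysis and HIF lists, ordered by difference, with shRNA 10 as open circles and shRNA 16 as filled ones, 1 library each. The filled circle lies to the right for most genes and the gap is widest for ALDOC. WSB1, SLC16A1 and, by little, INSIG2 and LDHB lie the other way.

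Promoters of 3 of these genes that hold the core of the HIF element, ACGTG on either strand, are shown with it in capitals. Build and window are the same as for the histone genes.
ALDOC, chr17:28576846-28577145, minus strand: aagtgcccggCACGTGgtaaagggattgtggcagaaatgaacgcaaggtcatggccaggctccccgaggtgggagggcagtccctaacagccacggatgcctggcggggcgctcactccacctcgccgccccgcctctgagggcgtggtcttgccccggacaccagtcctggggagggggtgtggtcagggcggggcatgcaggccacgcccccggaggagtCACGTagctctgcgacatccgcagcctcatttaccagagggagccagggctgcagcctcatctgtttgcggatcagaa
DDIT4, chr10:72273674-72273973, plus strand: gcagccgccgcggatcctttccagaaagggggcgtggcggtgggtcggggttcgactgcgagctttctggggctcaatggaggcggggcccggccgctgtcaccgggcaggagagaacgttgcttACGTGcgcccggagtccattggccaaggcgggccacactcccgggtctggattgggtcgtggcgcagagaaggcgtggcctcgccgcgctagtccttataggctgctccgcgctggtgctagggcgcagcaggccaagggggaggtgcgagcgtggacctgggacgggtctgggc
P4HA1, chr10:73096817-73097116, minus strand: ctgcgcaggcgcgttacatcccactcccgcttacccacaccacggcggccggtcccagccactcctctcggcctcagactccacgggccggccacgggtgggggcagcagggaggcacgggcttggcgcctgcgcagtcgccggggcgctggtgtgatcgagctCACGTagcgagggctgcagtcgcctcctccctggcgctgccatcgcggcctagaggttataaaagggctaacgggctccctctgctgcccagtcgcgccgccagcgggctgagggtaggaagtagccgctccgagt

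The letters stood in 5 of 9 promoters of the higher genes of these lists (55.6%), and were absent from those of PFKFB4, SLC16A3, ADM and MXI1. They stood in 20 of 39 promoters of all compared members (51.3%). Over all genes compared the share was 29.2%, and over all promoters 21.6%. Among higher genes outside the histones it was 27.3%, 12 of 44. The core overlaps the E-box CACGTG, which accounts for the first marked stretch in ALDOC and was in 11.5% of genes compared.

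The 48 higher genes outside these classes were led by IL4I1, a secreted amino acid oxidase of lymphoid cells, at 5.15 FPKM under shRNA 10 and 13.1 under shRNA 16. Next came VAMP5, a vesicle fusion protein gene, at 2.86 and 7.83, which passed the filter of 5 FPKM through shRNA 16. The rest were named after their values were seen. LILRA4, a receptor best known from plasmacytoid dendritic cells, was at 91.0 and 186 FPKM. CD48, a ligand of the SLAM family, was at 34.1 and 62.4 FPKM, the inhibitory receptor gene LAIR1 at 12.8 and 21.4, and the actin-binding leukocyte protein gene LSP1 at 63.8 and 99.7. LAG3, an inhibitory receptor of T cells, was at 5.40 and 9.88 FPKM, and GZMM, a granzyme, at 7.80 and 13.7, beside the T and NK marker sums given above, whose part in this was not tested. UCP2, an uncoupling protein gene of the mitochondrial membrane, was at 233 and 359 FPKM. IDH2, mitochondrial isocitrate dehydrogenase, was at 43.2 and 66.8 FPKM, and FADS2, a fatty acid desaturase, at 26.1 and 42.9.

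Among the 16 lower genes, SYPL1, a synaptophysin-like vesicle protein gene, showed the lowest difference, −1.23, at 21.5 FPKM under shRNA 10 and 8.56 under shRNA 16. RAB14, a small GTPase between Golgi and endosomes, was at 25.6 and 12.7 FPKM. TMED2, a cargo receptor of COPI vesicles, was at 107 and 69.2 FPKM, and DERL2, of ER-associated degradation, at 15.8 and 10.2. LPGAT1, a lysophospholipid acyltransferase gene, was at 10.2 and 6.01 FPKM. These genes were named after the values were seen or by size of difference, not from a list. SLC25A30, a mitochondrial carrier gene, was at 7.86 and 4.05 FPKM, SLC7A5, the large neutral amino acid transporter LAT1, at 53.9 and 34.9, and the mitotic kinase gene PBK at 27.9 and 18.2, and PBK and DERL2 were under 1.5-fold with median-of-ratios scaling. With a pseudocount of 5 FPKM, 6 of the genes compared were lower at this fold in place of 16.

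Some of the largest differences touch overlapping or duplicated genes and are uncertain. C18orf32 was at 4.34 FPKM under shRNA 10 and 19.7 under shRNA 16, while the read-through gene RPL17-C18orf32, which contains it, went the other way at 25.3 and 15.6. Their sum was 29.6 and 35.3 FPKM, a ratio of 1.19. C20orf24 was at 20.0 and 10.5 FPKM, and with TGIF2-C20orf24 the sum was 92.4 and 73.2. SCLY was at 8.66 and 4.54 and UBE2F-SCLY at 3.90 and 6.17, with a sum of 12.6 and 10.7. For these 3 the sum differed less than the part. FKBP1AP1, a pseudogene of FKBP1A, was at 10.3 and 4.93 FPKM against 184 and 159 for its parent. PDF, at 33.3 and 19.5 FPKM, lies beside COG8, which was at 19.4 and 19.7.

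In the pathway of the targeted gene, 17 of 25 compared JAK-STAT genes and 19 of 23 compared STAT3 targets lay above the median of all genes, with medians of 0.04 and 0.13. In both lists 0 were at least 1.5-fold higher or lower, near the shares over all genes of 1.29% and 0.211%. PIM1 and PIM2, survival kinases, were at 321 and 352 and at 325 and 354 FPKM. IRF4, a transcription factor on which these lymphomas depend, was at 73.8 and 80.8 FPKM, and MYC at 110.2 and 130.0. BCL6, the germinal centre repressor, was at 27.0 FPKM under shRNA 10 and 38.7 under shRNA 16, a difference of 0.50. The phosphatase gene PTPN6 (SHP-1), a brake on JAK and B cell receptor signals, was at 45.7 and 66.2 FPKM, a difference of 0.53. CCND2 was at 126 and 114 FPKM, and BCL2 at 61.1 and 66.9. SOCS3, the feedback inhibitor, missed the filter with less than 2 FPKM in both libraries. The STAT3 targets include VEGFA and HIF1A of the HIF list. They also share BCL2L1, BCL3, ICAM1, JUNB, NFKBIZ and TNFAIP3 with the NF-kB list below, so the counts of these lists are not independent.

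Among the other fixed lists, few genes passed 1.5-fold, and the differences lay in the position of whole lists around the median of all genes. NF-kB subunits and targets lay above it in 21 of 24 genes, with a median of 0.18. CCR7, a homing receptor gene, was at 57.9 and 82.7 FPKM, and NFKBIE, an NF-kB inhibitor gene, at 58.9 and 77.4. All 5 compared chemokine and trafficking receptor genes lay above it, with a median of 0.20, CCR7 among them and ITGB2, an integrin chain, at 30.8 and 42.7. Cytosolic ribosomal protein genes lay above it in 65 of 77, with a median of 0.12 and no member past 1.5-fold in either direction. That count is near the shares over all genes of 1.29% higher and 0.211% lower. Many ribosomal protein genes have processed copies, so single values are uncertain. The 149 genes of at least 500 FPKM had a median of 0.10 themselves, so level moves with that list and its part was not tested.

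On the other side, genes of the ATF4 amino acid response lay below the median of all genes in 17 of 20, with a median of −0.20. ATF4, the transcription factor of this response, was at 359 and 274 FPKM, and its targets ASNS (asparagine synthesis) at 118 and 95.1 and MTHFD2 (mitochondrial folate cycle) at 181 and 132. SLC7A5 was the only compared member past 1.5-fold, too few to set against the 0.211% of all genes that were lower. CHAC1, of glutathione breakdown, missed the filter at 5.94 and 2.80 FPKM. DDIT3, a transcription factor of the same response, was at 13.0 and 14.8 FPKM. MYC-linked ribosome biogenesis genes lay below it in 29 of 35, with a median of −0.16. GAR1, a protein of box snoRNA particles, was at 66.5 and 47.0 FPKM, and the nucleolar protein gene UTP20 at 13.0 and 9.20, while MYC itself lay on the other side. Cytosolic heat shock chaperones had a median of −0.16, with 12 of 18 below it. AHSA1, a co-chaperone of HSP90, was at 96.7 and 77.9 FPKM, and DNAJA1 at 204 and 167, but the small heat shock protein gene HSPB1 was at 26.8 and 40.3. Proteasome subunits lay below it in 25 of 33 and SR proteins and hnRNPs in 24 of 32, with medians of −0.12 for each.

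**Figure D5:**
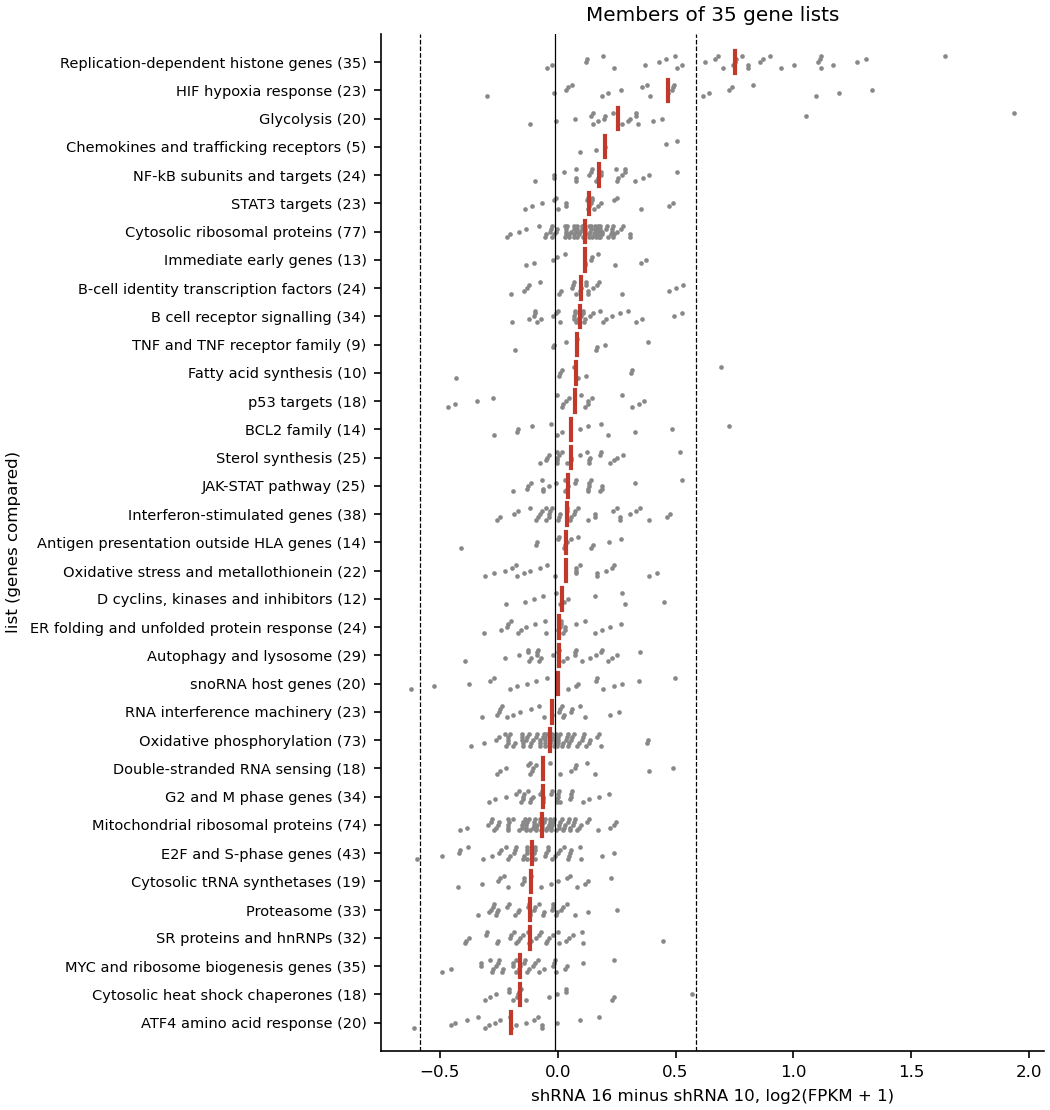
Differences in log2(FPKM + 1), shRNA 16 minus shRNA 10 (x axis), for the compared members of 35 lists, with 1 grey point per gene and a red bar at each list's median. The solid line is the median of all genes and dashed lines mark 1.5-fold. Histone genes (0.75), the HIF list (0.47) and glycolysis (0.25) lie furthest right, and the ATF4 list (−0.20) furthest left.

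Lists bearing on the hairpins themselves lay close to the middle, and the sign of the double-stranded RNA sensing, interferon and JAK-STAT medians changed with the settings. Of 23 compared genes of the RNA interference machinery and of 18 genes of double-stranded RNA sensing, 0 were past 1.5-fold, near the shares over all genes, with medians of −0.03 and −0.06. Interferon-stimulated genes, a usual readout of RNA sensing, had a median of 0.04 over 38 genes and 0 past 1.5-fold. B cell receptor genes had a median of 0.09 over 34 genes, and sterol synthesis 0.06 over 25. Oxidative phosphorylation genes had a median of −0.03 over 73. Of 24 compared genes of ER folding and the unfolded protein response, 13 lay above the median of all genes and 0 were past 1.5-fold. These counts of 0 lie near the shares over all genes of 1.29% higher and 0.211% lower.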

How the data were processed

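Values were the FPKM per gene and library that the authors deposited for OCI-LY10. The submitters' processing notes name TopHat, Bowtie2 and the hg19 build and give neither their versions nor their use. Per the labels' protocols, cDNA libraries came from Illumina's TruSeq kit for RNA. How FPKM was computed, with which annotation, strand setting and scaling, is not given in the sources used here. The columns were matched to samples by name, and another 4 columns of per-sample values were not used. Rows of 2 repeated symbols, both calendar dates, were summed, and none of the 26 such symbols is named.

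Differences are log2(FPKM + 1), computed with pandas 2.3.3 in Python 3.11.15. Called genes differ at least 1.5-fold on that scale, with no test. The calculation was tested on simulated data. Small RNA genes, at 57.8% and 58.1% of the FPKM sums, were left out by the rule.

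The members and lists were chosen with earlier results of these data known. Named genes were STAT3, fixed genes, the 15 most positive and 15 most negative differences, and the 2 highest and 2 lowest of a list. Others were named after their values were seen, as stated, and as examples of a list. Promoters were matched by symbol for 6290 genes. Gene length was planned as a description and not used, because the reference is of another build.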

Additional observations from a re-analysis of the deposited data

How the results depend on the processing

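The counts of genes at least 1.5-fold apart depended on the pseudocount and the filter. With a pseudocount of 0.1 FPKM 118 genes were higher and 31 lower, and with 5 FPKM 52 and 6. With a mean of at least 1 FPKM the counts were 190 and 35, with at least 20 FPKM 43 and 7, and with no filter 220 and 51. With small RNA symbols kept they were 190 and 88, so 68.3% of these genes were higher in place of 86.0%. Equal FPKM sums gave 80 and 30, median-of-ratios scaling 102 and 13, and at least 5 FPKM in each library 77 and 12. An alternative chosen after seeing the data left out HIST genes and gave 69 higher and 16 lower. Leaving out short noncoding RNAs, MTRNR2L genes and read-through pairs as well gave 58 and 13. More genes were higher than lower under each of these. The STAT3 difference stayed within the ordinary gap between the libraries under the pseudocounts and scalings tried. No list median at least 0.15 from 0 changed sign under the settings tried. No paired analysis was possible because each shRNA has 1 library, and no library could be left out for the same reason. Depth limits the low genes most, and FPKM gives no interval for them.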

Other observations

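Small nuclear and nucleolar RNA genes were outside the comparison by name. Summed over 105 SNORA genes, which encode guides of pseudouridylation, FPKM was 5207 with shRNA 10 and 6662 with shRNA 16. Summed over 256 SNORD genes, guides of ribose methylation, it was 43317 and 40569. At a mean of at least 5 FPKM, the median differences of both classes were 0.04. Of 63 SNORA genes at that level 23 were at least 1.5-fold higher and 19 lower, and of 95 SNORD genes 34 were higher and 29 lower. Over the 7584 genes compared, 1.29% were higher and 0.211% lower. The 24 SCARNA genes, guides found in Cajal bodies, summed to 226 and 236 FPKM, but 8 of the 12 at that level were higher and 2 lower, with a median of 0.91. The 29 RNU genes summed to 7421 and 5111 FPKM, while of the 3 at that level 2 were higher and 0 lower, with a median of 0.99. So for SNORD and RNU the change in the sum and the median difference had opposite signs. Short genes inside hosts can share reads with them, so the values are uncertain.

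In the list of B-cell identity genes, SPI1, which encodes PU.1, was at 5.29 FPKM under shRNA 10 and 8.10 under shRNA 16, a difference of 0.53 that passed 1.5-fold with a pseudocount of 0.1 FPKM. XBP1, of the secretory program, was at 77.5 and 67.4 FPKM.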
